A study of Mus musculus with 6 samples.

Results

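The 2-oxoglutarate-dependent oxygenases are enzymes that use iron, molecular oxygen and the metabolite 2-oxoglutarate to hydroxylate a substrate. The genes described here are 43 members of this superfamily, chosen by name: the Jumonji C (JmjC) histone lysine demethylases and related JmjC hydroxylases, the TET enzymes, the AlkB homologues and Fto, the procollagen prolyl and lysyl hydroxylases, and 5 further hydroxylases. The prolyl and asparaginyl hydroxylases of the hypoxia-inducible factors (HIF) were left out of the list and served as comparators. Of the 43 genes, 42 were matched to an identifier among the 56953 in the deposited count files, and 41 were among the 15591 genes with enough reads to test. Tmlhe, which hydroxylates trimethyllysine in carnitine synthesis, was not matched and has no value here.

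RNA was sequenced from natural killer (NK) cells of the spleen of C57BL/6 mice of wild-type (WT) genotype, which are lymphocytes that kill infected and transformed cells. All cells were kept for 7 days in RPMI-1640 medium with fetal calf serum, amino acid supplements, sodium pyruvate, β-mercaptoethanol and recombinant human IL-2 at 1700 U/ml, in 5% CO2. The hypoxia group (3 libraries) was held at 1% O2 and the normoxia group (3 libraries) at 20% O2, so IL-2, medium and culture time were shared and atmospheric rather than tissue oxygen was the reference. The labels call the libraries biological replicates. They give neither the age of the animals nor the way the cells were purified, nor whether a replicate was 1 mouse or a pool.

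In each reaction of this superfamily, 1 atom of oxygen goes to the substrate and the other to 2-oxoglutarate, which is split into succinate and carbon dioxide. On methyl groups bound to nitrogen, in histone lysines and in nucleic acids, the hydroxylated product falls apart, and the methyl group is lost. In procollagen, hydroxylated prolines hold the triple helix together, and hydroxylated lysines carry sugars and crosslinks. Because oxygen is a substrate, the activity of these enzymes can fall when oxygen is scarce, and genes of several of them are known targets of HIF. The files measure RNA only, and enzyme activity, methylation and hydroxylation were not analysed here.

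The libraries held 55104810 to 55794698 estimated counts, so 1 count corresponded to 0.0173 to 0.0190 counts per 1000000 (CPM, scaled by the trimmed mean of M values). The first principal component, with 55.5% of the variance, separated the oxygen groups, and the second, with 22.0%, set the replicate 1 library of each group apart from the other 4. All 10 NK cell markers were present and summed to 14702 to 17506 CPM in hypoxia and 15678 to 16903 CPM in normoxia, with Klre1 and Eomes called lower. Summed markers of some other cells differed between the oxygen groups, through a few genes of each list. The 4 basophil and mast cell genes summed to 76.0 to 89.6 CPM in hypoxia against 19.1 to 27.1 CPM in normoxia. The 8 T cell genes summed to 165 to 209 CPM against 111 to 129 CPM. Of these, 2 basophil and mast cell genes (Mcpt8 and Cpa3) and 3 T cell genes (Cd3d, Cd3g and Cd4) were called higher. Mcpt8 made up most of its sum (mean 79.7 CPM in hypoxia, 21.1 CPM in normoxia). Fcer1a and Ms4a2 reached at most 0.0178 CPM. The T cell genes not called were Trac (log2 fold change −0.08), Cd3e (−0.05), Cd8a (0.15), Cd8b1 (0.41) and Cd5 (0.48). The 5 B cell genes summed to 0.996 to 1.14 CPM in hypoxia and 0.256 to 0.525 CPM in normoxia (1 called higher), and the 5 neutrophil genes to 0.683 to 1.91 CPM and 0.127 to 0.305 CPM (2 called higher). The 5 macrophage genes, with C1qa at 0, summed to 2.42 to 3.22 CPM in hypoxia and 4.09 to 5.90 CPM in normoxia (1 called higher and 1 lower). The 6 fibroblast genes, with Col3a1 at 0, summed to 0.551 to 1.10 CPM and 0.366 to 0.833 CPM (none called). The 4 endothelial genes, with Emcn at 0, reached at most 0.156 CPM and the 4 erythroid genes at most 0.263 CPM. The part of these other cells in the results below was not tested. Of the marker genes called higher, S100a8 and S100a9 (neutrophil) and Lyz2 (macrophage) reached at most 0.0190 CPM in normoxia. They entered the test through their hypoxia libraries, where they are high, so these calls are no independent result. Cd4 was below 1 CPM in every library and also needed its hypoxia libraries to enter. Of all tested genes, 11.2% were called higher and 9.72% lower. Xist (232 to 321 CPM) and the Y-linked Ddx3y (37.3 to 48.3 CPM) were both present in every library.

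The members did not all move in the same direction. In edgeR's quasi-likelihood test with Benjamini-Hochberg adjustment over all genes, 6 members were higher in hypoxia (P4ha1, Tet1, P4ha2, Kdm4b, Kdm3a and Plod1) and 4 were lower (Kdm8, Alkbh1, Jmjd8 and Kdm5c), while 31 did not pass an adjusted p of 0.05. That is 14.6% of the 41 tested members higher, against 11.2% of all tested genes, and 9.76% lower, against 9.72% of all tested genes. In either direction 24.4% of members passed, against 20.9% of all genes. The median log2 fold change, hypoxia over normoxia, was 0.0063 over the members and −0.0052 over all tested genes. All 5 tested procollagen hydroxylases had every hypoxia library above every normoxia library, as had 3052 of the 15591 tested genes, and 3 of the 5 passed the test. The 7 JmjC hydroxylases had 2 members lower and none higher.

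In 21 of the 41 members (51.2%) the 3 hypoxia and 3 normoxia libraries did not overlap, 11 with hypoxia above and 10 with hypoxia below, against 38.3% of all tested genes. When the members' scaled values were summed within each library, hypoxia held 2924, 2962 and 2919 CPM over the 42 matched members and normoxia held 2609, 2557 and 2497 CPM. The groups did not overlap, and P4ha1 contributed 534 ± 13.1 CPM in hypoxia and 253 ± 13.4 CPM in normoxia (mean ± SD, n = 3 each). In bulk RNA, a change in the share of a cell type and a change in RNA per cell cannot be told apart.

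The fit with the replicate number as a block, which uses the pairing of same-numbered libraries, called 11 members higher and 11 lower. Over all genes that fit called 19.2% higher and 20.0% lower, so the members' shares rose together with the background. It kept the 10 calls and added Kdm4c, Kdm5b, Alkbh5, Plod2 and Plod3 as higher and Kdm2b, Kdm4a, Kdm4d, Kdm6a, Tet3, Fto and Ogfod1 as lower. Scaling by library size alone moved the split of calls from 6 higher and 4 lower to 10 higher and 2 lower among the members, and from 1745 and 1516 to 2384 and 998 over all genes. Without both libraries numbered 1, which stood apart on the second component, 8 members were higher and 4 were lower. The share of all genes called in that fit is not given here, so these counts are not read as a result about the members.

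**Figure D1:**
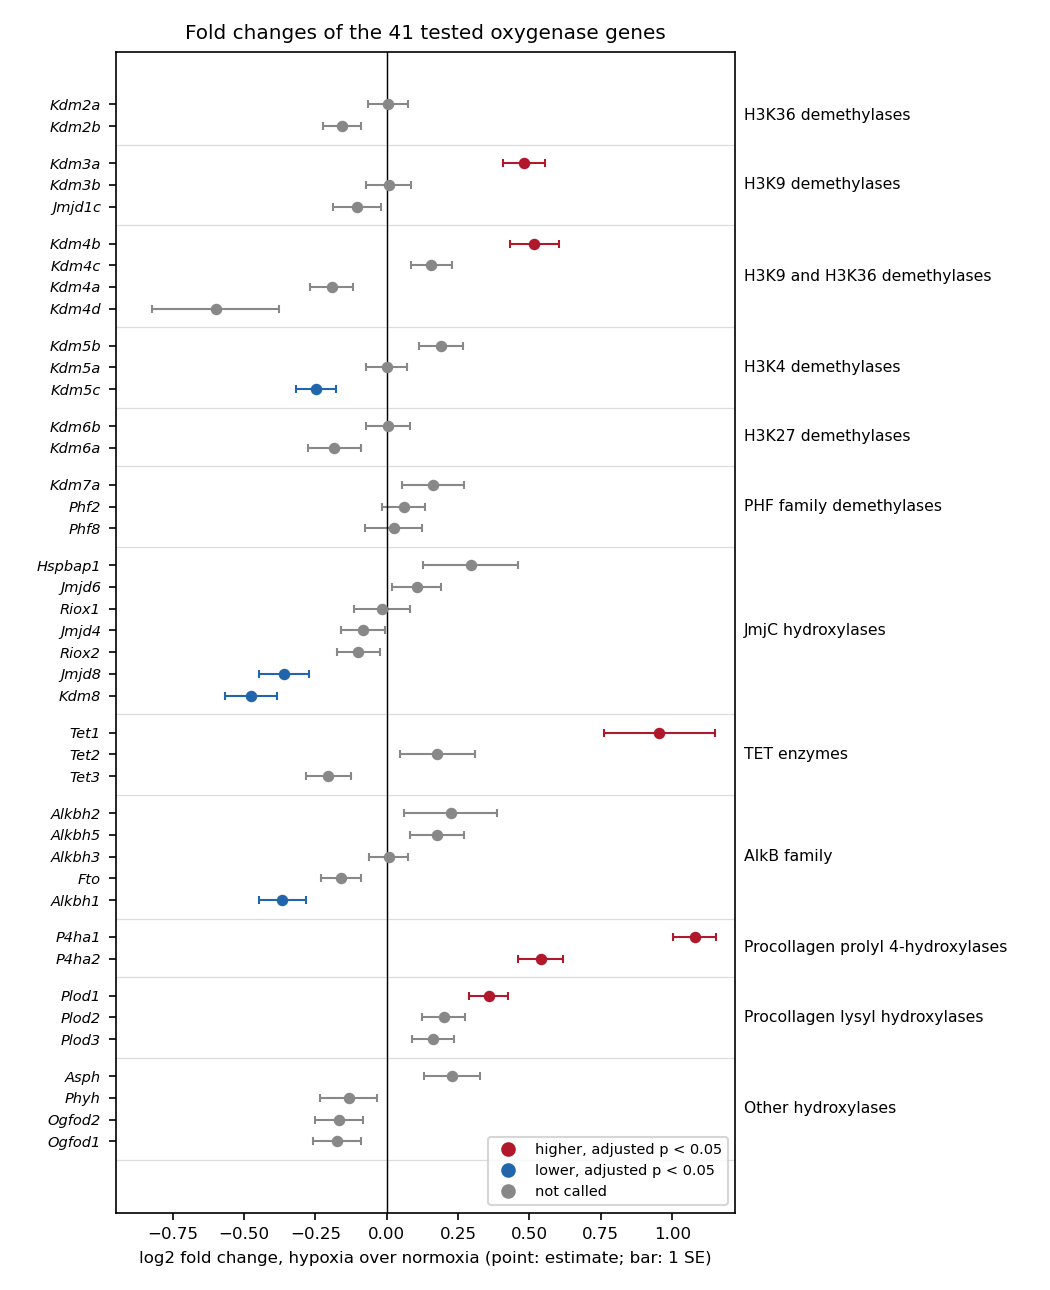
Log2 fold change (hypoxia over normoxia, horizontal axis) of the 41 tested 2-oxoglutarate-dependent oxygenases, grouped by substrate, with bars of 1 standard error from edgeR and colours for members called higher, called lower or not called. P4ha1 (1.08) and Tet1 (0.96) lie farthest to the right and Kdm4d (−0.60, not called) farthest to the left.

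The collagen hydroxylases held the member with the highest fold change. Collagen prolyl 4-hydroxylase is made of catalytic alpha subunits, encoded by P4ha1, P4ha2 and P4ha3, and the beta subunit P4hb, and it forms the 4-hydroxyproline that keeps collagen helices stable. The lysyl hydroxylases Plod1, Plod2 and Plod3 act on collagen lysines. Of the 6 genes, 3 were higher in hypoxia, none was lower, 2 did not pass the test and P4ha3 was not tested. Over all tested genes, 11.2% were higher and 9.72% were lower.

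Promoter windows of 3 of these genes and of the histone demethylase gene Kdm3a are shown as a selection. These members were called higher and belong to families with known HIF targets, and a part of HIF in their change was not tested. HIF binds DNA at sites whose core is ACGTG or GCGTG. The windows run from 250 bases before to 50 bases after the RefSeq start, in build GRCm38.p6, on the strand of the gene, and capitals mark every match to either core or to its reverse complement, CACGT or CACGC. The P4ha1 window is chr10:59323046-59323345 on the plus strand, with 3 matches. The P4ha2 window is chr11:54100674-54100973 on the plus strand, with 4. The Plod1 window is chr4:147936727-147937026 on the minus strand, with 2. Of 3 Kdm3a windows, the 1 shown, chr6:71632868-71633167 on the minus strand, has 1 match and the others have none.
P4ha1: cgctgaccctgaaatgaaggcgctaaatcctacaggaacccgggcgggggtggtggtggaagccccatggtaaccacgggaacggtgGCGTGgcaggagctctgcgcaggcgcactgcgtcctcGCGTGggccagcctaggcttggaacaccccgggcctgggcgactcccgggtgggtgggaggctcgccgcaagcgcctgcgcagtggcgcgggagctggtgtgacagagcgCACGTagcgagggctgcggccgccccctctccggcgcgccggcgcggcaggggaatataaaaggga
P4ha2: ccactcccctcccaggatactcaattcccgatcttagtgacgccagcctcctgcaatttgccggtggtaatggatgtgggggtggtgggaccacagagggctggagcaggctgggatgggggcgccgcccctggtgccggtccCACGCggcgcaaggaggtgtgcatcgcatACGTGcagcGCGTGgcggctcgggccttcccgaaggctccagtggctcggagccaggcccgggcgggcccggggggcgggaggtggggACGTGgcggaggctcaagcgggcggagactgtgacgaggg
Plod1: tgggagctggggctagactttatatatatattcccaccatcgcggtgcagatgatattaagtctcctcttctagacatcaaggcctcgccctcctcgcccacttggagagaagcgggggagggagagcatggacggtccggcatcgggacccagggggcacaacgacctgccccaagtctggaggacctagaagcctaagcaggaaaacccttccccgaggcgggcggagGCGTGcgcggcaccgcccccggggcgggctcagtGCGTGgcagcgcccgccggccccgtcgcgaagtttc
Kdm3a: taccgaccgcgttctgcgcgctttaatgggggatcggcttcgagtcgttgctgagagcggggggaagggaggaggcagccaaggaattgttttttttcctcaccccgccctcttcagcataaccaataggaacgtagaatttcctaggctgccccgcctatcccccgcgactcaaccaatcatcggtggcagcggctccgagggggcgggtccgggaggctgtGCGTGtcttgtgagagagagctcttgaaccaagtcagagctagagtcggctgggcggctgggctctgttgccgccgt

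None of these matches lies in a palindromic CACGTG, the E-box with which ACGTG overlaps. The table gave windows for 35 of the 43 members. A core match was found in 22 of these 35 genes (62.9%) and in 46.7% of all 27025 genes with a window, tested or not. It was found in 4 of 5 members called higher, in 2 of 4 called lower and in 16 of 25 not called. Among members not called, the Hspbap1 window held 7 matches, a Kdm4c window 6 and the Plod3 window 4. In Hspbap1 and Kdm4c these include 2 CACGTG each, where both strands match. Tet1 was the member called higher whose window held no match, and Kdm4b had no window. A match is a run of letters and not a measured site.

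P4ha1 (ENSMUSG00000019916) measured 533, 522 and 548 CPM in the hypoxia libraries 1, 2 and 3 and 266, 239 and 252 CPM in the normoxia libraries. Every hypoxia library was above every normoxia library, and the spread within a group was small beside the gap. The means were 534 ± 13.1 and 253 ± 13.4 CPM (SD, n = 3 each), a 2.11-fold difference (log2 fold change 1.08, SE 0.08, adjusted p in edgeR = 2.4e-05). Per kilobase of coding transcript, P4ha1 stood at 183 CPM in hypoxia, the highest level of all members on this scale. P4ha2 (ENSMUSG00000018906) measured 58.3, 62.4 and 53.5 CPM in hypoxia and 42.0, 39.7 and 38.3 CPM in normoxia. These groups were also apart, with a log2 fold change of 0.54 (SE 0.08, adjusted p in edgeR = 0.0013). P4ha3 was near the limit of detection, with 0, 1 and 1 counts in hypoxia and 1, 1 and 0 in normoxia, where 3 counts is the limit that a count of 0 allows.

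Plod1 (ENSMUSG00000019055) measured 36, 35.3 and 34.3 CPM in hypoxia and 27.7, 27.6 and 27.2 CPM in normoxia, tight values with a gap of several CPM between the groups. Its log2 fold change was 0.36 (SE 0.07, adjusted p in edgeR = 0.0052). Plod2, known for telopeptide lysines and collagen crosslinks, measured 178, 187 and 182 CPM in hypoxia and 170, 149 and 158 CPM in normoxia. Plod3, which also carries glycosyltransferase activity, measured 50.4, 57.1 and 52.5 CPM against 45.6, 48.3 and 49.0 CPM. Neither overlapped between the groups and neither passed the test: the adjusted p in edgeR was 0.0934 for Plod2 (log2 fold change 0.20, SE 0.08) and 0.151 for Plod3 (0.16, SE 0.07). With the replicate block the adjusted p was 0.0158 for Plod2 and 0.0234 for Plod3, and both were called higher. Per kilobase Plod2 had the highest level of the 3 lysyl hydroxylases in both groups, whether length was taken over all exons (33.9 CPM in hypoxia) or over coding transcripts (49.9 CPM).

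**Figure D2:**
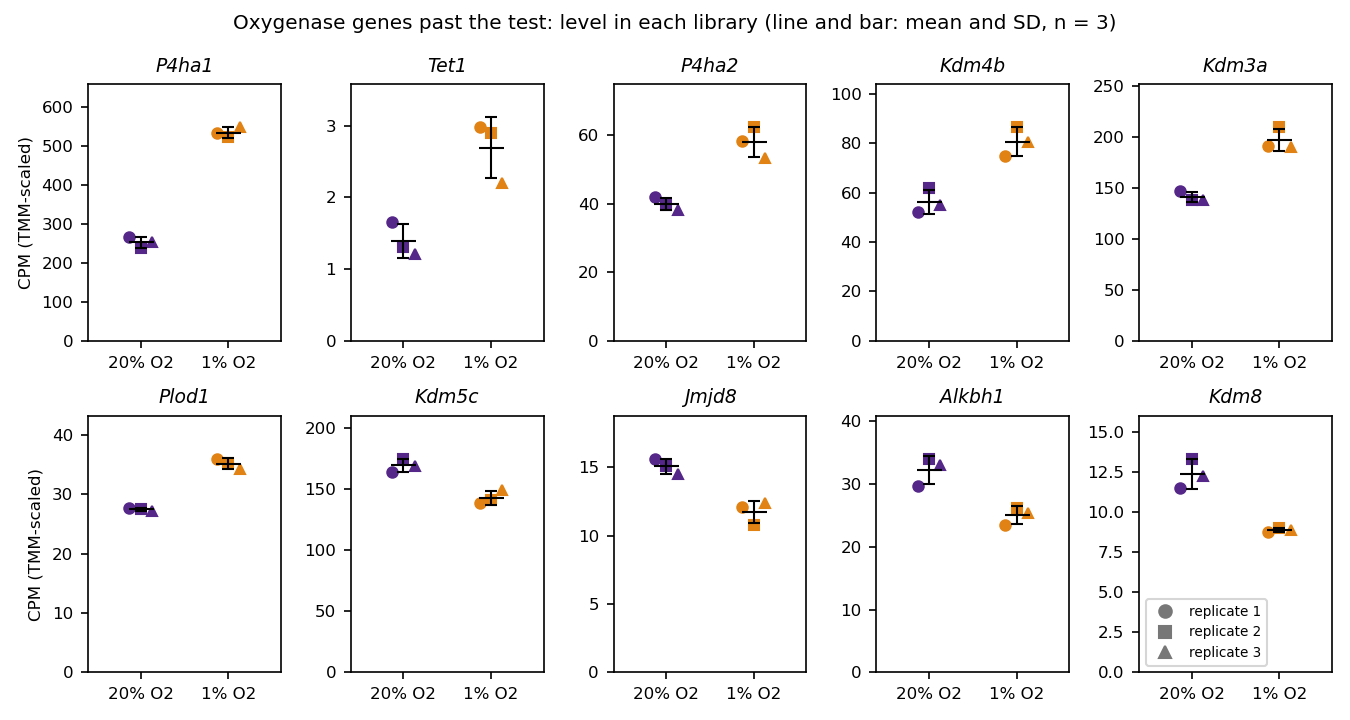
TMM-scaled CPM (vertical axes, each starting at 0) in each of the 6 libraries for the 10 members that passed the test, with 20% O2 in purple, 1% O2 in orange, a marker shape for each replicate number, and a black line and bar for the mean and SD of 3 libraries. In none of the 10 members do the groups overlap, and P4ha1 goes from 239 to 266 CPM at 20% O2 to 522 to 548 CPM at 1% O2.

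P4hb, the beta subunit that is also a protein disulfide isomerase, had a log2 fold change of 0.04 (adjusted p in edgeR = 0.788). Of 4 tested collagen folding partners, 1 was higher and none was lower, beside 11.2% and 9.72% of all tested genes. It was Colgalt1, which adds galactose to hydroxylysine, at 181, 189 and 189 CPM in hypoxia and 150, 158 and 165 CPM in normoxia (log2 fold change 0.24, SE 0.07, adjusted p in edgeR = 0.0393). That call did not pass in any of the 6 fits that left out 1 library, where the adjusted p was 0.055 to 0.144. Only 4 of the 12 collagen and collagen-domain chains had enough reads to test, and 2 of the 4 were called higher. Col6a1 (16, 11 and 19 counts in hypoxia, 2, 4 and 1 in normoxia) and Col6a2 (29, 25 and 24 counts in hypoxia, 10, 3 and 5 in normoxia) were the 2 called (adjusted p in edgeR = 0.0068 and 0.0070). Both stayed below 1 CPM in every library. They entered the test through their hypoxia libraries, where they are high, so these calls are no independent result. With a stricter filter (at least 1 CPM in 3 libraries), 0 of the collagen chains were tested. Col1a1 reached at most 0.280 CPM.

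The 17 JmjC histone lysine demethylases remove methyl groups from lysines of histone H3, and members act on different lysines. Kdm3a and Kdm4b were higher in hypoxia, Kdm5c was lower and 14 did not pass the test. That is 17.6% of the 17 called, beside 20.9% of all tested genes. Their median log2 fold change was 0.0044, beside −0.0052 over all tested genes. With the replicate block, 4 were called higher and 5 lower, where that fit called 19.2% and 20.0% of all genes.

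Among the enzymes for H3K9, a mark of silent chromatin, Kdm3a (ENSMUSG00000053470) measured 191, 210 and 191 CPM in hypoxia and 147, 138 and 138 CPM in normoxia. All hypoxia libraries were higher, by 1.40-fold in the means (log2 fold change 0.48, SE 0.07, adjusted p in edgeR = 0.0018). Its paralogue Kdm3b lay at 96.5 to 102 CPM in hypoxia and 90.4 to 105 CPM in normoxia, with a log2 fold change of 0.0063 (adjusted p = 0.967). Jmjd1c, the third gene of this subfamily, averaged 61.3 ± 3.19 and 65.9 ± 6.16 CPM and its groups overlapped. Per kilobase the order was Kdm3a above Kdm3b above Jmjd1c in both groups, on both length measures.

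The KDM4 enzymes act on trimethylated H3K9, and some but not all of them also on H3K36, and their 4 genes went in both directions. Kdm4b (ENSMUSG00000024201) measured 74.8, 86.5 and 80.6 CPM in hypoxia and 52.2, 61.7 and 55.1 CPM in normoxia, with no overlap. Its log2 fold change was 0.52 (SE 0.09, adjusted p in edgeR = 0.0026). Kdm4a measured 76.8, 82.7 and 80.6 CPM in hypoxia and 89.9, 98.3 and 86.3 CPM in normoxia, the opposite order, with a log2 fold change of −0.19 (SE 0.07, adjusted p in edgeR = 0.0957, or 0.0096 in the blocked fit). Kdm4c measured 55.1, 53.7 and 53.5 CPM against 51.1, 49.2 and 45.3 CPM, a narrow gap (adjusted p = 0.152 in edgeR, or 0.0263 with the block). Kdm4d, a low-expressed gene, measured 0.823, 1.28 and 1.17 CPM in hypoxia and 1.87, 1.76 and 1.35 CPM in normoxia. Its log2 fold change of −0.60 was the lowest of all members, but with an SE of 0.22 it did not pass in edgeR (adjusted p = 0.0879, or 0.0407 with the block). Per kilobase of coding transcript, Kdm4a (20.1 CPM) was above Kdm4b (15.8 CPM) in normoxia, and Kdm4b (22.6 CPM) was above Kdm4a (17.6 CPM) in hypoxia. The order also changed when length was taken over all exons.

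Among the enzymes for H3K4, a mark of active promoters, Kdm5c (ENSMUSG00000025332) measured 138, 141 and 149 CPM in hypoxia and 164, 175 and 169 CPM in normoxia. The groups were apart, with a log2 fold change of −0.25 (SE 0.07, adjusted p in edgeR = 0.0333). This call was lost when any of 5 libraries was left out: hypoxia 1 (adjusted p = 0.114), hypoxia 2 (0.167), hypoxia 3 (0.0565), normoxia 2 (0.120) or normoxia 3 (0.0757). It was also lost with library-size scaling (0.131). Kdm5b measured 77.9, 83.6 and 86.0 CPM in hypoxia and 76.1, 74.2 and 66.6 CPM in normoxia, the opposite order, and did not pass (log2 fold change 0.19, SE 0.08, adjusted p in edgeR = 0.111, or 0.0278 with the block). Kdm5a had the same mean in both groups, 112 ± 4.85 CPM in hypoxia and 112 ± 5.48 CPM in normoxia (SD, n = 3 each). On both length measures Kdm5c was above Kdm5a and Kdm5a above Kdm5b in both groups.

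The enzymes for H3K27, the Polycomb mark, did not pass the test. Kdm6a measured 65.8, 60.5 and 58.1 CPM in hypoxia and 78.1, 69.2 and 62.1 CPM in normoxia. The groups overlapped, while within each replicate number hypoxia was the lower library, and the edgeR adjusted p was 0.199 without and 0.0136 with the replicate block (log2 fold change −0.18, SE 0.09). Kdm6b averaged 32.5 ± 1.51 and 32.4 ± 1.83 CPM, a difference far inside the spread. Kdm6a and Kdm5c have Y-linked homologues of similar sequence, Uty and Kdm5d, between which estimated counts may be divided. Uty was called lower at 6.66, 8.42 and 9.71 CPM against 12.3, 11.9 and 12.1 CPM (log2 fold change −0.55, SE 0.13, adjusted p in edgeR = 0.0147, and 0.053 without hypoxia 2), and Kdm5d was not called (−0.10).

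The H3K36 demethylases Kdm2a and Kdm2b, which bind unmethylated CpG DNA, did not pass the test. Kdm2a averaged 153 ± 3.80 CPM in hypoxia and 153 ± 5.98 CPM in normoxia (SD, n = 3 each). Kdm2b measured 43.6, 44.9 and 44.1 CPM in hypoxia and 47.5, 50.7 and 49.7 CPM in normoxia, without overlap (log2 fold change −0.16, SE 0.07, adjusted p in edgeR = 0.125, or 0.0227 with the block). The PHF family, whose members read H3K4 methylation with a PHD finger, gave 0 calls of 3 in edgeR, beside 20.9% of all tested genes. It gave 0 at an unadjusted p of 0.05 and 0 in DESeq2 and limma-voom. Kdm7a averaged 15.6 ± 1.18 and 13.9 ± 1.78 CPM, Phf2 74.2 ± 2.40 and 71.2 ± 5.50 CPM, and Phf8 50.4 ± 4.33 and 49.6 ± 5.92 CPM in hypoxia and normoxia. All 3 sets of libraries overlapped.

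Ratios within a library compare paralogues without any scaling between libraries. Kdm4b over Kdm4a had a log2 ratio of −0.04 to 0.06 in hypoxia and −0.79 to −0.65 in normoxia, a 1.64-fold higher ratio in hypoxia. Kdm3a over Kdm3b lay at 0.91 to 1.04 against 0.40 to 0.61, and P4ha1 over P4ha2 at 3.06 to 3.36 against 2.59 to 2.72. Kdm5c over Kdm5a lay at 0.32 to 0.37 in hypoxia and 0.56 to 0.65 in normoxia. Plod1 over Plod2 came close to touching, at −2.41 to −2.31 against −2.62 to −2.43. In these 5 pairs and in Tet1 over Tet3 the groups did not overlap, and each gave an exact two-sided permutation p of 0.1, the smallest that 3 against 3 libraries allow. Kdm6a over Uty overlapped, at 2.58 to 3.30 in hypoxia and 2.36 to 2.67 in normoxia, with an exact two-sided permutation p of 0.2. No pair can pass 0.05 at this number of libraries, and the pairs were chosen with results of these data known. Kdm4b and Kdm4a lay apart in opposite directions, as did Tet1 and Tet3. Their ratios therefore had to separate and are no further test.

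**Figure D3:**
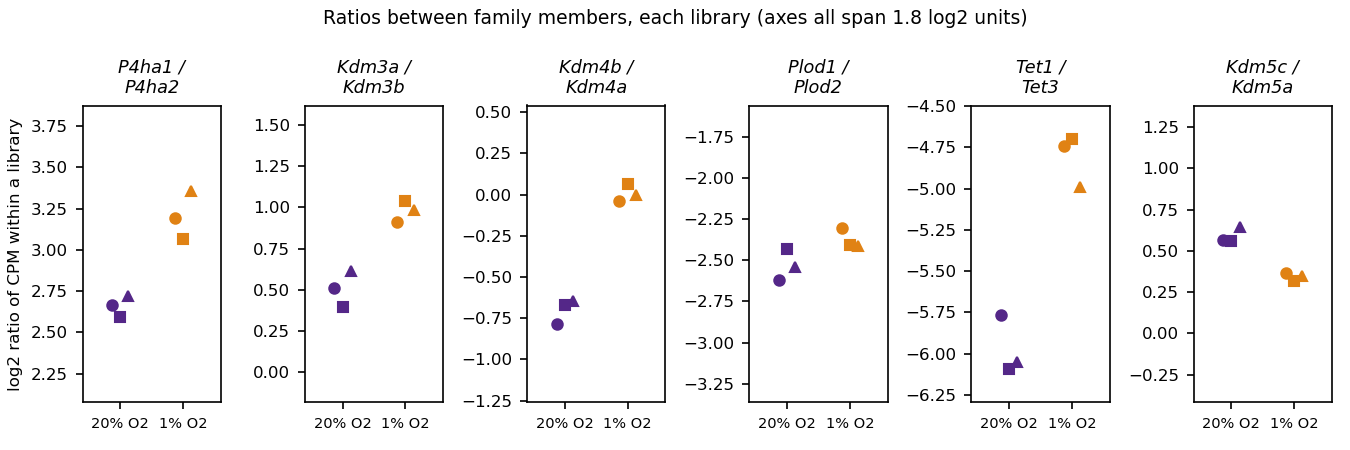
Log2 ratio of CPM of 2 members of a family within each library (vertical axes, all with the same span), with 20% O2 in purple on the left, 1% O2 in orange on the right, and circles, squares and triangles for replicates 1, 2 and 3. The ratio is higher at 1% O2 in all libraries for 5 pairs and lower for Kdm5c over Kdm5a, where it goes from 0.56 to 0.65 down to 0.32 to 0.37.

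The TET enzymes oxidise 5-methylcytosine in DNA. Tet1 (ENSMUSG00000047146) measured 2.98, 2.89 and 2.21 CPM in hypoxia and 1.66, 1.30 and 1.21 CPM in normoxia. The groups did not overlap and the means differed 1.94-fold, from 66 to 87 counts a library in normoxia to 124 to 170 in hypoxia (log2 fold change 0.96, SE 0.19, adjusted p in edgeR = 0.0071). Tet3 measured 79.7, 75.1 and 70.2 CPM in hypoxia and 90.3, 89.1 and 79.9 CPM in normoxia, with hypoxia below by a small margin (log2 fold change −0.21, SE 0.08, adjusted p in edgeR = 0.0952, or 0.0044 with the block). Tet2 averaged 36.4 ± 4.59 and 32.2 ± 5.51 CPM (SD, n = 3 each) with overlapping groups, and did not pass (log2 fold change 0.18, adjusted p = 0.390). The fold change of Tet1 was on a low base: per kilobase of coding transcript it stood at 4.75 CPM in hypoxia, below Tet2 (7.66 CPM) and Tet3 (12.6 CPM), and the order Tet3 above Tet2 above Tet1 held in both groups on both length measures. The opposing genes of DNA methylation (Dnmt1, Dnmt3a, Dnmt3b and Uhrf1) gave 0 calls of 4, beside 20.9% of all tested genes. They gave 0 at an unadjusted p of 0.05 and 0 in DESeq2, limma-voom and the block. Their smallest edgeR adjusted p was 0.824 (Dnmt3b).

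The AlkB family removes alkyl groups from nucleic acids. Alkbh1 (ENSMUSG00000079036), known to act on tRNA, measured 23.5, 26.2 and 25.4 CPM in hypoxia and 29.7, 34.0 and 33.0 CPM in normoxia. Hypoxia was lower in all libraries, with a log2 fold change of −0.37 (SE 0.08, adjusted p in edgeR = 0.0123, and 0.0592 without normoxia 2 or 0.0567 with library-size scaling). The 2 erasers of m6A, a methyl mark on messenger RNA, went in opposite directions and neither passed. Alkbh5 measured 254, 230 and 220 CPM in hypoxia and 233, 194 and 196 CPM in normoxia. Fto measured 47.4, 43.4 and 43.9 CPM in hypoxia and 51.3, 48.1 and 51.0 CPM in normoxia. Alkbh5 overlapped between the groups and Fto did not. The edgeR adjusted p was 0.234 for Alkbh5 (log2 fold change 0.18, SE 0.10) and 0.145 for Fto (−0.16, SE 0.07). With the block it was 0.0147 and 0.0232, and without normoxia 1 Alkbh5 also passed (0.0462).

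The DNA repair enzymes Alkbh2 (5.72 ± 1.12 CPM in hypoxia, 4.90 ± 0.558 CPM in normoxia) and Alkbh3 (28.7 ± 0.449 and 28.5 ± 0.310 CPM) overlapped between the groups. Of 7 genes of the m6A methyltransferase complex, 1 was lower and none was higher, beside 9.72% and 11.2% of all tested genes. The block added Zc3h13 as higher (adjusted p = 0.0478 in edgeR). The lower gene was Rbm15, which guides the complex to RNA, at 56.4, 57.5 and 55.5 CPM in hypoxia and 65.4, 77.1 and 74.1 CPM in normoxia (log2 fold change −0.35, SE 0.08, adjusted p in edgeR = 0.0098, and 0.052 with library-size scaling). The 5 YTH proteins, which read m6A, gave 0 calls in edgeR, beside 20.9% of all tested genes. They gave 0 at an unadjusted p of 0.05 and 0 in DESeq2 and limma-voom. With the block 1 was lower, beside 20.0% of all genes. Their smallest adjusted p was 0.265 (Ythdc1, log2 fold change −0.13).

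Of the 7 JmjC hydroxylases, 2 were lower in hypoxia and none was higher, beside 9.72% lower and 11.2% higher among all tested genes. Their median log2 fold change was −0.08, and 0.00050 with library-size scaling. Kdm8 (ENSMUSG00000030752), also known as Jmjd5 and first described as a histone demethylase, measured 8.78, 9.02 and 8.90 CPM in hypoxia and 11.5, 13.3 and 12.3 CPM in normoxia. The hypoxia values were close together and all lower, 28.0% below normoxia in the mean (log2 fold change −0.47, SE 0.09, adjusted p in edgeR = 0.0056). Jmjd8 (ENSMUSG00000025736), a JmjC protein of the endoplasmic reticulum, measured 12.1, 10.8 and 12.3 CPM in hypoxia and 15.6, 15.1 and 14.5 CPM in normoxia. These groups were apart as well (log2 fold change −0.36, SE 0.09, adjusted p in edgeR = 0.0168), and the call was lost without hypoxia 2 (0.0992) or normoxia 2 (0.0615).

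Jmjd4, which hydroxylates the translation termination factor eRF1, measured 14.0, 15.0 and 14.7 CPM in hypoxia and 15.2, 15.2 and 16.0 CPM in normoxia. The groups did not overlap, but the difference was small (log2 fold change −0.08, adjusted p = 0.511). Jmjd6, a lysyl hydroxylase of splicing factors, averaged 84.5 ± 6.55 and 78.5 ± 6.38 CPM (SD, n = 3 each). The ribosomal oxygenases Riox1 (21.3 ± 0.694 and 21.6 ± 2.67 CPM) and Riox2 (66.9 ± 3.84 and 71.7 ± 4.40 CPM) overlapped between the groups, as did Jmjd6 and Hspbap1 (3.61 ± 0.166 and 2.94 ± 0.604 CPM).

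None of the 4 further hydroxylases passed in edgeR, beside 20.9% of all tested genes. Of the 4, 1 had an unadjusted p under 0.05, and their median log2 fold change was −0.15, or −0.07 with library-size scaling. DESeq2 and limma-voom called 0 of them. Asph, which hydroxylates EGF-like domains in the endoplasmic reticulum, measured 10.1, 9.09 and 10.4 CPM in hypoxia and 8.59, 8.78 and 7.90 CPM in normoxia. It was higher without overlap but did not pass (log2 fold change 0.23, SE 0.10, adjusted p in edgeR = 0.136), except with library-size scaling (0.0484). Ogfod1, a prolyl hydroxylase of a ribosomal protein, measured 25.8, 24.3 and 23.1 CPM against 28.8, 25.2 and 28.7 CPM. Its groups overlapped by 1 library, and the edgeR adjusted p was 0.178 without and 0.0461 with the block (log2 fold change −0.18). Ogfod2 averaged 16.8 ± 1.34 and 18.8 ± 0.517 CPM. Phyh, which starts the breakdown of phytanic acid in peroxisomes, averaged 13.3 ± 0.236 and 14.6 ± 1.75 CPM (SD, n = 3 each).

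**Figure D4:**
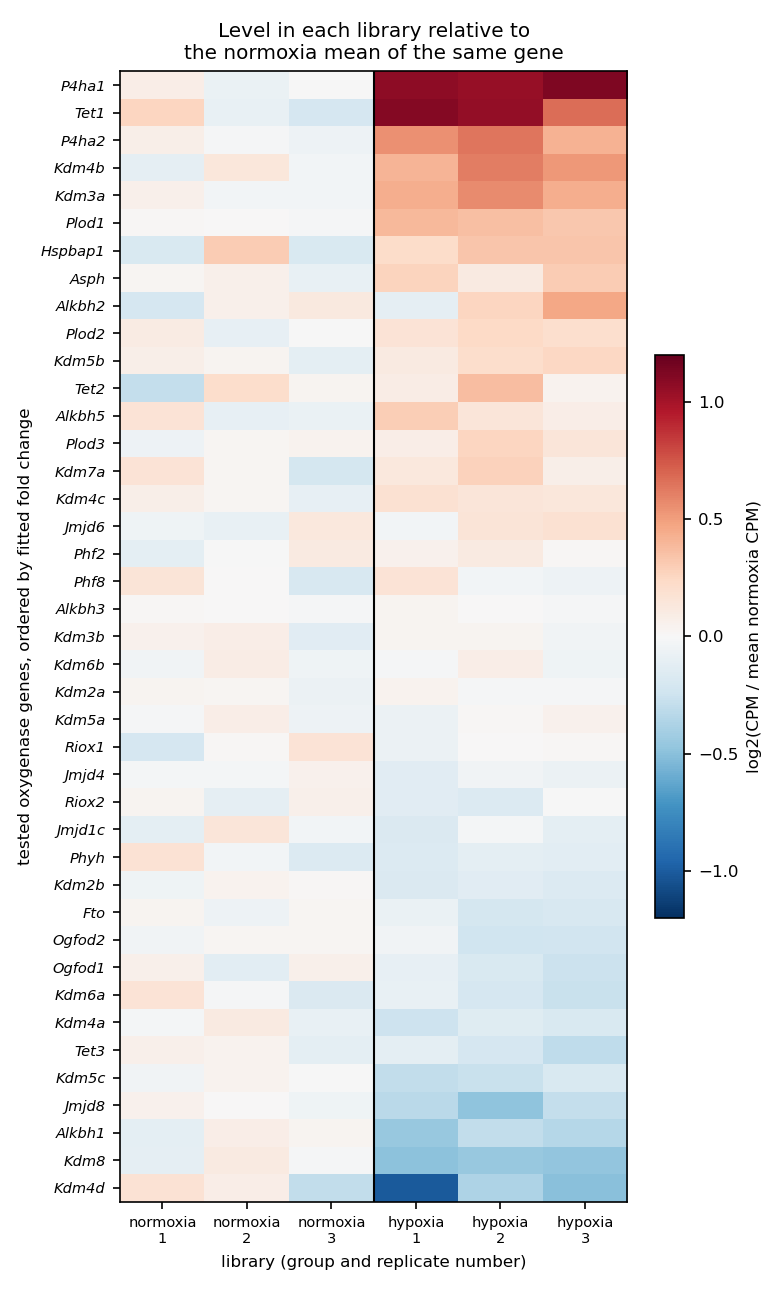
Heat map of the 41 tested members (rows, ordered by fitted fold change) in the 6 libraries (columns), coloured by log2 of CPM over the mean normoxia CPM. The 3 hypoxia columns share their colour at both ends of the order, from P4ha1 at the high end to Kdm4d at the low end, and most rows between differ little from normoxia.

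The HIF hydroxylases, which use the same chemistry to mark HIF for degradation or to silence it, gave values for comparison. Egln3 measured 336, 304 and 319 CPM in hypoxia and 156, 96.1 and 107 CPM in normoxia. It was higher with a log2 fold change of 1.42 (SE 0.16, adjusted p in edgeR = 0.00030), and is itself a known HIF target. Egln1 (0.22, adjusted p = 0.182), Egln2 (0.17, 0.0992) and the asparaginyl hydroxylase Hif1an (−0.20, 0.0880) did not pass in edgeR. With the block Egln1 and Egln2 were called higher and Hif1an lower, and with library-size scaling Egln1 and Egln2 were called higher. Of 15 other tested 2-oxoglutarate oxygenases outside the 43, Uty was the 1 called, where 20.9% of all tested genes were called. Their median log2 fold change was −0.16, or −0.07 with library-size scaling. The block called 5 of them lower and none higher, beside 20.0% and 19.2% of all genes.

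The histone demethylases Kdm1a and Kdm1b use the cofactor FAD in place of iron and 2-oxoglutarate. Kdm1b measured 19.6, 19.1 and 17.5 CPM in hypoxia and 15.4, 15.1 and 15.5 CPM in normoxia, higher in all libraries (log2 fold change 0.29, SE 0.08, adjusted p in edgeR = 0.0300). That call did not pass in 4 of the 6 fits that left out 1 library: hypoxia 1 (0.103), hypoxia 2 (0.107), normoxia 2 (0.108) or normoxia 3 (0.065). Kdm1a had a log2 fold change of −0.0017 (adjusted p = 0.989). The opposing list of 20 histone methyltransferase genes includes Eed and Suz12, which encode non-catalytic subunits. It gave 0 calls in edgeR, beside 20.9% of all tested genes, and 3 of its genes had an unadjusted p under 0.05. DESeq2 and limma-voom also called 0. The block called 2 higher and 5 lower, where that fit called 19.2% and 20.0% of all genes. The smallest edgeR adjusted p was 0.0809, for the H3K9 methyltransferase Suv39h1 (log2 fold change −0.19). Their median was −0.04, and 0.04 with library-size scaling.

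Of 22 tested genes that make or use 2-oxoglutarate, succinate or fumarate, 2 were higher and 6 were lower, which is 36.4% beside 20.9% of all genes. With the replicate block 4 were higher and 8 lower, where that fit called 19.2% and 20.0% of all genes. It added D2hgdh (adjusted p in edgeR = 0.0028) and Idh3a (0.0229) as higher and Sdhb (0.0024) and Got1 (0.0279) as lower. The median log2 fold change of the 22 genes was −0.09, or −0.01 with library-size scaling. Bcat1, the cytosolic aminotransferase that passes the amino group of branched-chain amino acids to 2-oxoglutarate, measured 3.03, 2.63 and 3.34 CPM in hypoxia and 14.5, 11.1 and 12.8 CPM in normoxia. Its log2 fold change was −2.09 (SE 0.14, adjusted p in edgeR = 1.7e-05), and the groups were far apart. Gpt2, the mitochondrial alanine aminotransferase, measured 7.78, 6.96 and 7.56 CPM in hypoxia and 20.8, 15.9 and 15.2 CPM in normoxia (log2 fold change −1.22, SE 0.13, adjusted p in edgeR = 0.00020). Also lower were Psat1 (−0.52), Bcat2 (−0.33) and Idh3g (−0.24), and Dlst, a subunit of the 2-oxoglutarate dehydrogenase complex, was higher (0.27). The calls of Idh3g and Dlst were lost in 5 of the 6 fits that left out 1 library, those without hypoxia 1, hypoxia 2, hypoxia 3 or normoxia 2 in both genes and the fit without normoxia 3 (Idh3g) or normoxia 1 (Dlst), where the adjusted p was 0.054 to 0.194 for Idh3g and 0.069 to 0.161 for Dlst.

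The isocitrate dehydrogenases that use NADP, which interconvert isocitrate and 2-oxoglutarate, were named after their values were seen. The cytosolic Idh1 measured 10.8, 8.89 and 10.7 CPM in hypoxia and 18.3, 15.7 and 15.0 CPM in normoxia. The mitochondrial Idh2 measured 24.1, 26.2 and 26.1 CPM in hypoxia and 16.8, 16.9 and 19.7 CPM in normoxia. Idh1 was lower and Idh2 higher in all libraries (log2 fold changes −0.69 and 0.52, adjusted p in edgeR = 0.0023 and 0.0032). Their log2 ratio, Idh2 over Idh1, was 1.15 to 1.56 in hypoxia and −0.13 to 0.40 in normoxia. With both genes apart in opposite directions this ratio had to separate, so it is no further test. Its exact two-sided permutation p was 0.1, the smallest that 3 against 3 libraries allow.

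**Figure D5:**
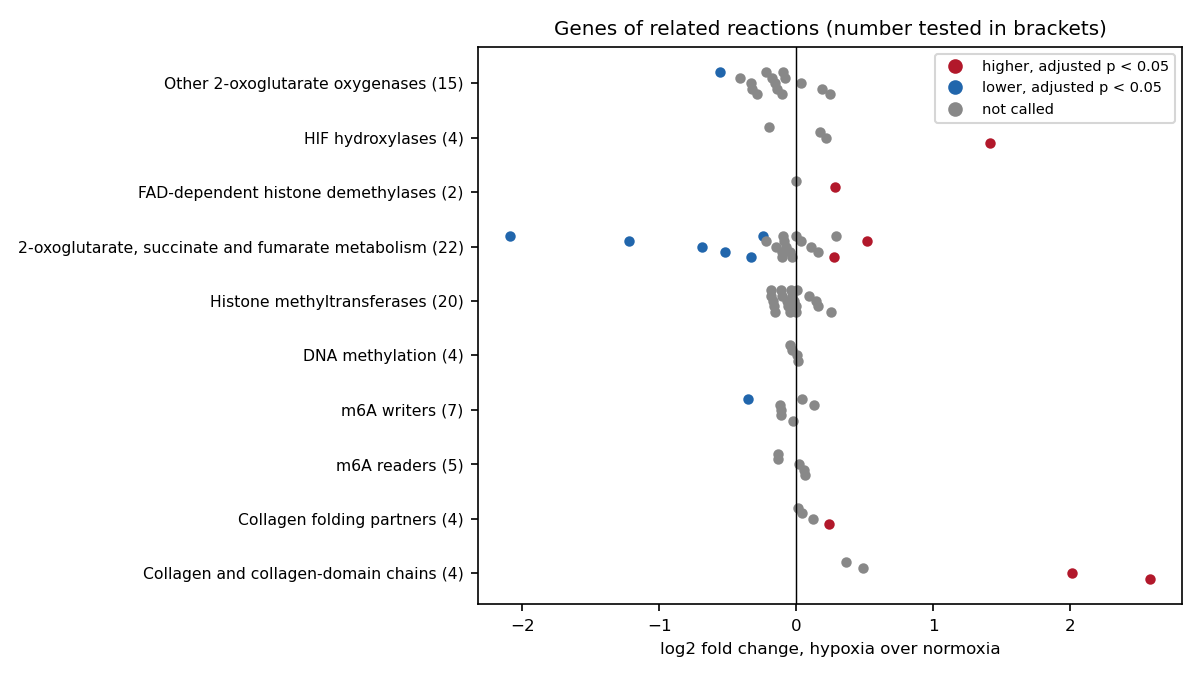
Log2 fold change (hypoxia over normoxia, horizontal axis) of tested genes outside the 43 members, grouped by list with the number tested in brackets, 1 point a gene, coloured by edgeR call. In the metabolite list the calls run from Bcat1 (−2.09) to Idh2 (0.52), and no gene is called in the lists of histone methyltransferases, DNA methylation genes or m6A readers. Of all tested genes, 20.9% were called.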

How the data were processed

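Strand-specific mRNA libraries were sequenced on the DNBSEQ platform, per the labels. Trim Galore 0.6.4, kallisto 0.4.6, edgeR 3.17 and GRCm39 are named in the submitters' processing notes, and whether counting used strand is not given in the sources used here. Values deposited were the authors' estimated counts per Ensembl gene (69.4% whole within 1e-06) and log2 CPM, which equal edgeR's log2 CPM with a prior count of 2 and were not tested. Estimated counts were rounded. Kdm6b, Phf2 and Alkbh3 have annotated antisense partners, and without strand the reads of a gene and its partner cannot be told apart.

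Genes passing edgeR's filterByExpr (minimum count 10, minimum total 15) were fitted with edgeR 4.0.16 (quasi-likelihood F test, TMM scaling, no block), with Benjamini-Hochberg adjustment over 15591 genes and a threshold of 0.05. CPM are TMM-scaled, and the SE of a fold change was derived from the F statistic. Fits were tested on simulated data. Replicates differed beyond sampling noise (chi-square per gene 12.4 to 59.2). Deviations from the group means of same-numbered libraries correlated at 0.47, 0.33 and 0.30, all over 0.1. Of the differently numbered pairs, hypoxia 2 with normoxia 3 was also over 0.1 (0.12), and the others were −0.35 to −0.01. The numbers were taken to pair the libraries in the block, an alternative to the main fit, from the data and not from a label. The pairing of numbers 2 and 3 is less clear than that of number 1. Alternatives used DESeq2 1.42.0, limma 3.58.1 (voom and trend), other scalings and filters, the block, and each library left out.

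The members and lists were chosen with earlier results of these data known. Values in every library are given for members called, not overlapping between groups, or changing their call with the block; other lists are given by counts and up to 2 called genes with the smallest p. Further genes of the metabolite list, and those that the block added to a list, were named after their values were seen. Length per gene came from GENCODE M21 (GRCm38), and promoter windows from RefSeq (GRCm38.p6). Nothing in the labels ties a replicate to an animal, so p-values measure the spread between these samples.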

Additional observations from a re-analysis of the deposited data

How the results depend on the processing

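Over 15 alternatives, 549 of 615 member values kept their direction and their side of the threshold, 13 fell short of it, 23 newly passed it and 30 changed sign, and P4ha1, P4ha2, Plod1, Kdm3a, Kdm4b, Tet1 and Kdm8 were called in all 15. Library-size scaling and limma-trend (also on library size) gave 998 and 988 genes lower over all genes, 10 and 9 members higher, 2 and 2 members lower, and a member median of 0.0896 and 0.0894. The replicate block gave 2988 genes higher and 3120 lower, and 11 members in each direction; its fold changes kept the sign of every member. With 1 library left out, all genes called higher ranged from 1146 to 1980 and lower from 804 to 1636, and members called higher from 6 to 8 and lower from 1 (without normoxia 2) to 4. In that range the smallest counts over all genes came without normoxia 2 (1146 higher, 942 lower) and without hypoxia 2 (1160 higher, 804 lower), and without hypoxia 2 there were 2 members lower; the cause was not tested. Outside the left-out fits, Kdm5c lost its call with library-size scaling (0.131), limma-trend (0.117) and no filter (0.0522), and Alkbh1 with library-size scaling (0.0567) and limma-trend (0.0608). Sign changes occurred in members near 0 and none was called: with size factors from DESeq2, with its Wald test and with no filter, Kdm2a (−0.00031, −0.00031 and −0.0063) and Kdm5a (−0.0039, −0.0039 and −0.0099); with no filter, Kdm3b (−0.0035), Kdm6b (−0.0060) and Alkbh3 (−0.0035); without both libraries numbered 1, Kdm6b (−0.0085); with library-size scaling and limma-trend, Jmjd4 (0.00050 and 0.00068) and Riox1 (0.0637 and 0.0734). With 1 library left out, the ranges were −0.0308 to 0.0264 for Kdm2a, −0.0603 to 0.0443 for Kdm3b, −0.0315 to 0.0371 for Kdm5a, −0.0226 to 0.0497 for Kdm6b, −0.0634 to 0.11 for Phf8, −0.11 to 0.0684 for Riox1 and −0.0066 to 0.0209 for Alkbh3. Depth limits P4ha3 and most collagen chains, which were not tested.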
